A study of Mus musculus with 18 samples.

Results

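The genes described here encode the secreted and membrane-bound proteases that cut extracellular matrix, the matrix metalloproteinases (MMP) and the ADAMTS proteases, together with the tissue inhibitors of metalloproteinases (TIMP) and the ADAMTS-like glycoproteins (ADAMTSL). They were chosen by name: every gene symbol in the array files that consists of Mmp, Adamts or Adamtsl and a number, or of Timp and a number from 1 to 4. The arrays carried 47 such genes among 27962 gene names, namely 21 MMP, 17 ADAMTS, 5 ADAMTSL and 4 TIMP genes. Each gene was read from its brightest probe, and 41 of the 47 had a probe well above background on at least 3 arrays and were tested (17 MMP, 15 ADAMTS, 5 ADAMTSL and 4 TIMP genes). The probe used was well above background on all 18 arrays for 13 of them. The 6 genes that were not tested were Mmp1a, Mmp20, Mmp21, Mmp25, Adamts13 and Adamts19, which were well above background on at most 1 array.

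The cells came from thyroids of C57BL/6 mice of both sexes, either after partial thyroidectomy, in which part of the gland is removed, or without that surgery. The tissue was dissociated with collagenase and dispase, and the cells were kept in culture for 2 days before they were sorted. Sorting used the DNA dye Hoechst 33342, with and without verapamil, a blocker of the pumps that export the dye: cells that keep little dye form the side population, a fraction studied in many organs as a source of stem and progenitor cells, and the remaining cells form the main population. The 4 groups were the control side population (CSP, 6 arrays), the control main population (CMP, 3 arrays), the side population after thyroidectomy (TSP, 6 arrays) and the main population after thyroidectomy (TMP, 3 arrays). All 4 groups share the strain, the digestion, the culture and the staining. The ages of the mice, the time between surgery and sampling and the number of animals behind a sample are not given in the sources used here. Amplified RNA carried Cy5 and shared its array with a Cy3-labelled reference, a pool of total RNA from several organs and embryos of Swiss Webster mice, with no dye swap. Every value below is therefore a log2 ratio of the sample to that reference, so that 0 means the level in the pool, 1 a doubling and a negative value a level below the pool. The ratios compare groups within a gene and cannot rank genes against one another.

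Metalloproteinases of both families hold a zinc ion in the active site and are made as inactive precursors. MMP genes encode collagenases, gelatinases, stromelysins, membrane-type enzymes and several others, ADAMTS genes encode proteases of proteoglycans and procollagens, and TIMP proteins block the active sites of many of these enzymes. In the thyroid the follicles rest on a basement membrane and lie in a stroma of fibroblasts and capillaries, and the matrix of both is a substrate of these proteases.

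On 38.8% to 72% of the spots of an array the Cy5 signal was well above background. The arrays lay on 5 slides, and no slide held all 4 groups. Markers of the labelled tissue were present in the main population. Of 9 thyroid follicular markers (thyroglobulin, Tshr, Pax8 and others), 8 were well above background on all CMP arrays and 8 on all TMP arrays. On all CSP arrays 1 was, and on all TSP arrays 2 were. The lowest counts were on the dimmest side population arrays, CSP 1 and CSP 2 (1 marker each, 40.7% and 41% of spots well above background) and TSP 5 (2 markers, 38.8%). CSP 3 to CSP 6 had 5, 7, 5 and 8 of the 9. TSP 3, TSP 4 and TSP 6 had 7, 4 and 4, at 63.2%, 66.8% and 47.8% of spots. CMP 3, at 45.8% of spots, had 8, and so had TSP 1 and TSP 2, at 49.9% and 53.7%. The part of array brightness in these counts was not tested. The libraries labelled TSP 1 and TSP 2 stood apart from the other TSP arrays. Over all genes their median r was 0.948 with arrays of the main population and 0.696 with the other side population arrays; over the 41 tested metalloproteinase and inhibitor genes these values were 0.914 and 0.318. Results that involve TSP are therefore given with and without TSP 1 and TSP 2, a choice made after the data were seen, and the grouping of the other arrays by label was kept. In the authors' deposited table of ratios, 9 of the 12 side population columns correlated best with the scanner values of an array of another number, 8 of them within the same group, and the column of TSP 6 correlated best with CSP 6. The numbers used here are those of the scanner files. In mixed cells of this kind, fewer cells of a type and less RNA per cell cannot be told apart.

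**Figure D1:**
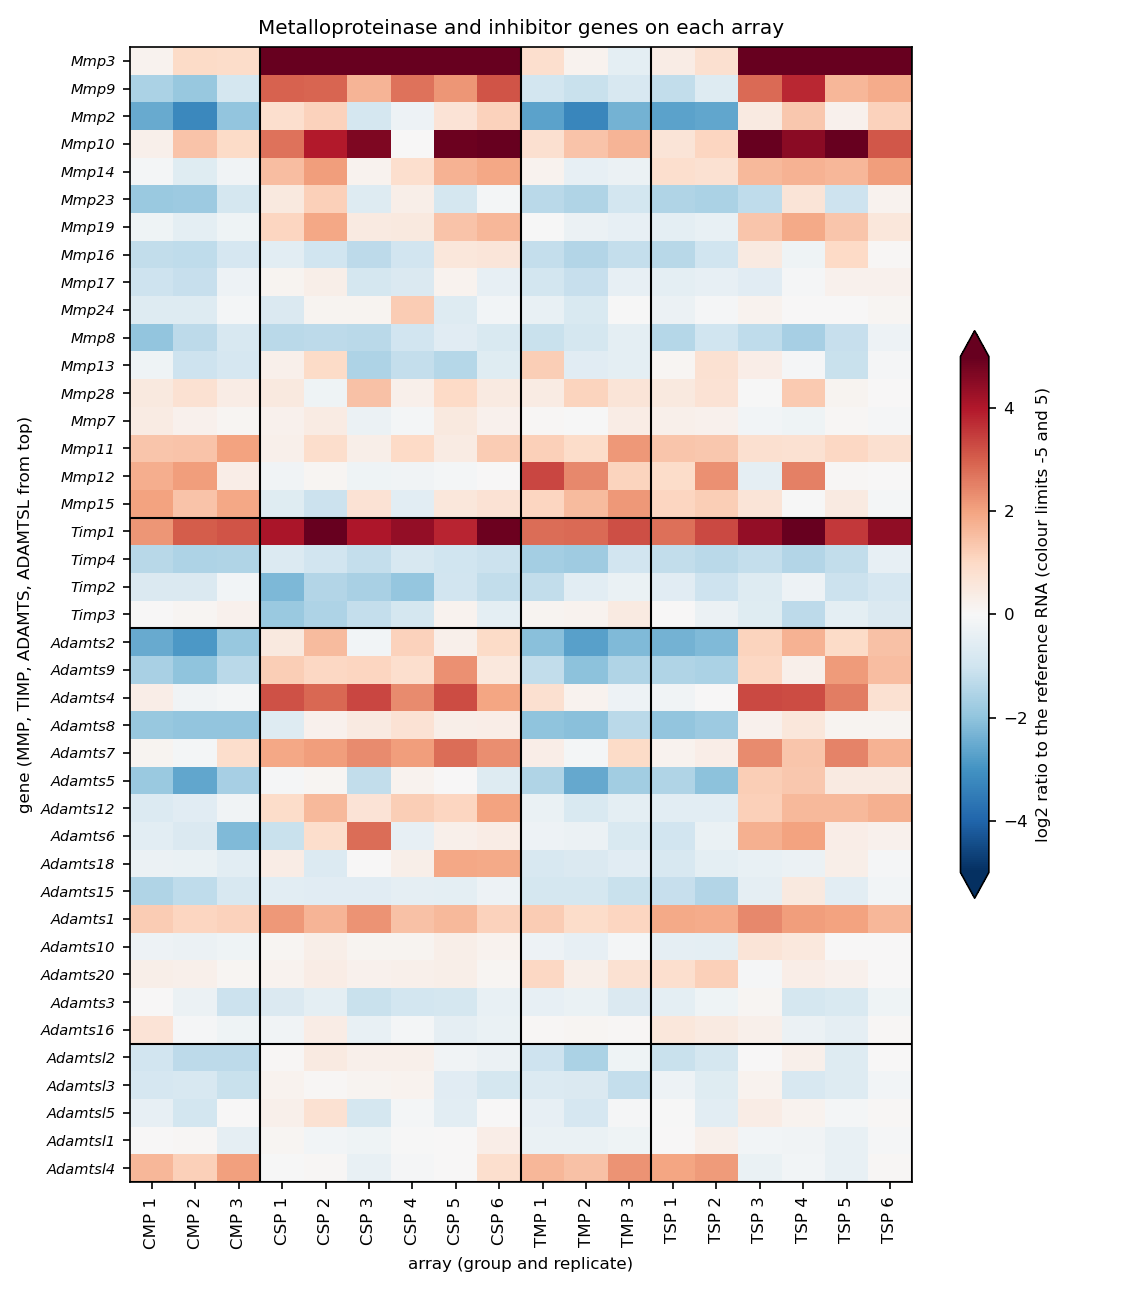
Log2 ratio to the reference RNA of the 41 tested genes (rows, MMP, TIMP, ADAMTS and ADAMTSL from the top, by size of the CSP minus CMP difference) on each of the 18 arrays (columns, by group). Mmp3 was at 5.06 or more on the 6 CSP arrays and on TSP 3 to TSP 6 and at 0.96 or less on the CMP, TMP, TSP 1 and TSP 2 arrays; values beyond the colour limits of -5 and 5 have the end colours.

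The first comparison asked how the side population differed from the main population without surgery. Of the 41 tested genes, 19 passed the threshold, an adjusted p under 0.05 in limma's moderated test with Benjamini-Hochberg adjustment over all 20454 genes tested, and they made up 46.3% of the 41, where 14.9% of all genes passed. In CSP, 14 of the genes were higher than in CMP (34.1%, against 7.61% of all genes) and 5 were lower (12.2%, against 7.25%). The median difference was 0.68 (log2) for the 41 genes and 0.06 for all genes. By family, 8 of 17 MMP genes, 6 of 15 ADAMTS genes, 2 of 5 ADAMTSL genes and 3 of 4 TIMP genes passed. For 18 of the 41 genes all 6 CSP arrays lay above all 3 CMP arrays (11.1% of all genes did so), and for 5 all CSP arrays lay below (9.19% of all genes). In the fit without TSP 1 and TSP 2, which share in the estimate of the spread, 22 genes passed, where 19.3% of all genes did, and the 22 held all 19. Of these, 17 were higher (against 10.2% of all genes) and 5 lower (against 9.06%). Leaving out these arrays, a choice made after the data were seen, changed the SE of Mmp3 from 1.15 to 0.425. Adjusted p values of CSP against CMP without them, here and below, are therefore descriptive. The count of 19 with all arrays rests on few main population arrays: without CMP 2 it was 3 and without CMP 1 it was 9. Leaving out TSP 1 and TSP 2 together with CMP 1, CMP 2 or CMP 3 gave 17, 17 and 19. The shares of all genes that passed in these fits are not given here, so these counts do not set the members apart from other genes. Slide 4, the only slide with both groups, held CSP 5, CSP 6 and the single CMP 2, which was assumed to vary like the CSP arrays. Within it no member and no other gene passed; 20 members had an unadjusted p under 0.05 (48.8%, against 21.4% of all genes). The 19 genes had the same direction there, on arrays that were also part of the main fit and so are no independent check. With the slide as a block 23 genes passed, where 28.2% of all genes did: Mmp11, Mmp23 and Timp3 lost the call, and Mmp10, Mmp12, Mmp16, Mmp17, Timp4, Adamts5 and Adamts18 gained it. With the block and without TSP 1 and TSP 2, 18 passed, where 21.1% of all genes did.

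The stromelysins Mmp3 and Mmp10 encode enzymes of broad specificity that cut proteoglycans, laminin and fibronectin and activate other pro-MMPs. Mmp3 showed the largest difference of the genes described here. Its log2 ratio was 0.17, 0.96 and 0.91 on the CMP arrays, and in CSP it ran from 5.06 through a median of 6.12 to 7.35. Every CSP array thus lay far above every CMP array. The difference was 5.35 ± 1.15 (SE of the fit, 6 against 3 arrays), a 40.7-fold higher level in CSP (limma adjusted p = 0.00884). Mmp10 behaved less evenly. It was 0.25, 1.43 and 0.96 on the CMP arrays, and in CSP it was 2.70 to 5.99 on 5 arrays but 0.025 on CSP 4, below all 3 CMP arrays. CSP 4 was also the CSP array on which Mmp10 was not well above background. The difference of 2.83 ± 1.12 did not pass with all arrays (limma adjusted p = 0.0959) and passed without TSP 1 and TSP 2 (limma adjusted p = 0.033). With the slide as a block it passed with all arrays (limma adjusted p = 0.0453) and not without TSP 1 and TSP 2 (limma adjusted p = 0.0958).

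**Figure D2:**
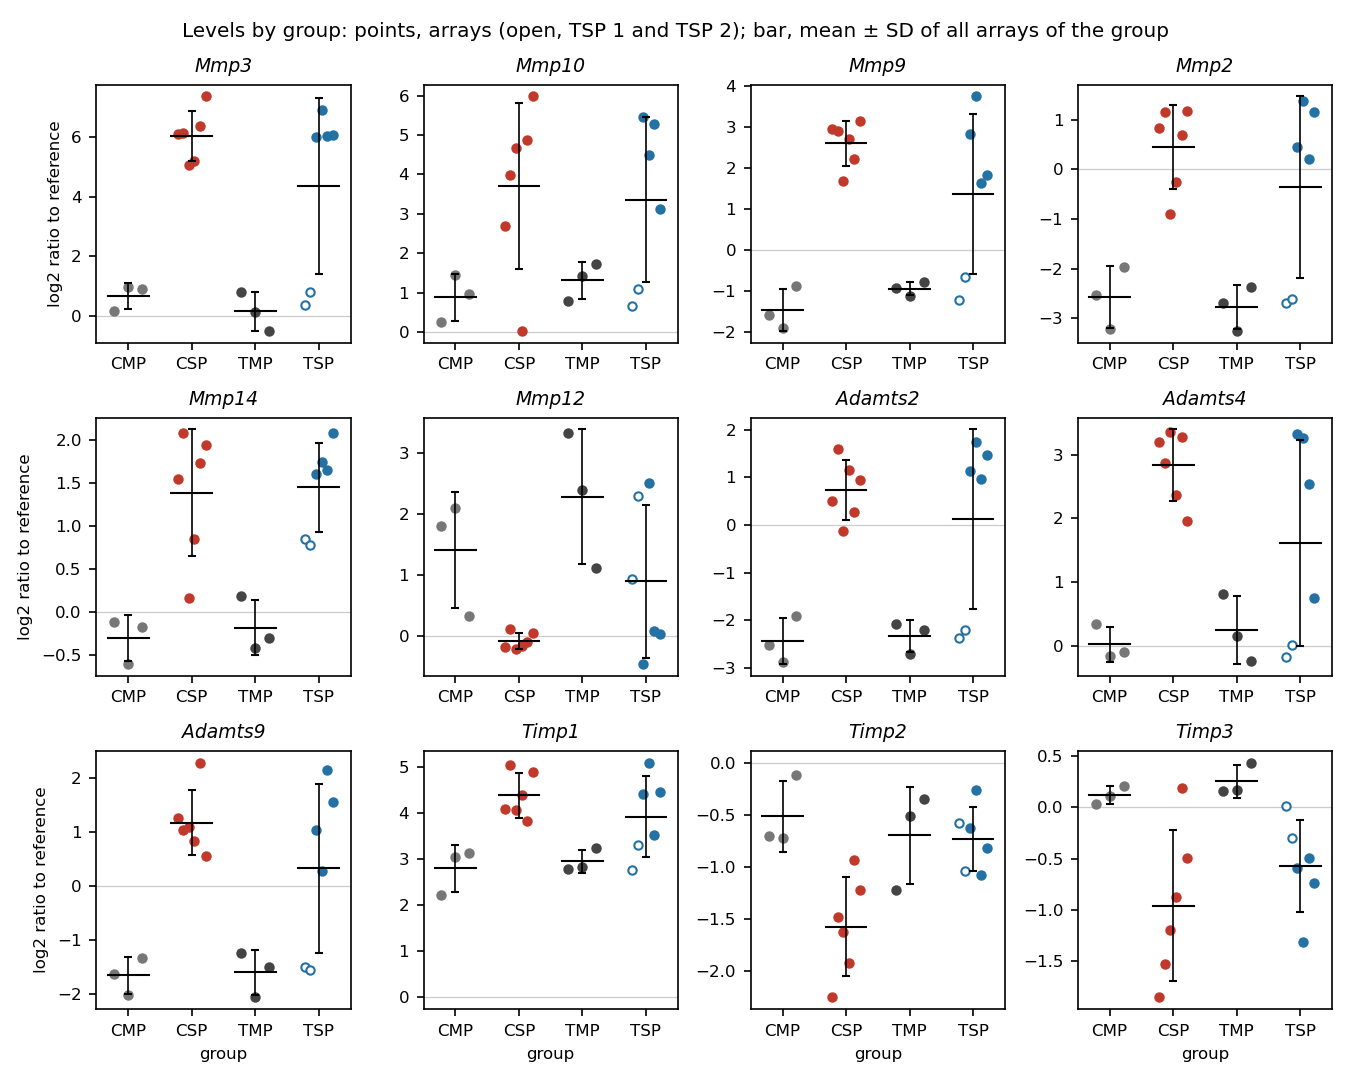
Log2 ratio to the reference RNA (vertical axis) of 12 genes in the 4 groups; each point is an array, open points are TSP 1 and TSP 2, and the bar with its whiskers is the mean ± SD of all arrays of the group. The open points lie with the main population for Mmp3, Mmp9, Mmp2 and Adamts2, and Timp2 is lowest in CSP.

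Both stromelysin genes lie in a cluster of MMP genes on chromosome 9, several of whose promoters are textbook targets of the transcription factor AP-1. On the array's coordinates (mouse build mm7) the probes of 8 of the genes lay between positions 7280046 and 7695493 of chromosome 9, a span of 415.4 kb, in the order Mmp13, Mmp12, Mmp3, Mmp1a, Mmp10, Mmp8, Mmp20 and Mmp7. In the 250 bases before the annotated start (RefSeq, build GRCm38.p6), the AP-1 motif TGANTCA, which reads the same on both strands, was present before at least 1 start of 7 of these 8 genes, the exception being Mmp8. It was in none of the other 24 genes of the families with a promoter in the table, and before at least 1 start of 7.82% of 27025 genes and in 6.75% of 32851 promoters. Mmp3 passed as higher in CSP against CMP with all arrays. The calls of Mmp10 (higher) and Mmp12 (lower) depended on the fit, and Mmp13 did not pass. The sequences of these 4 genes are shown because all 4 carry the motif (in capitals). Each reads 5′ to 3′ on the plus strand and ends at the base before the start. The regions are chr9:7445572-7445821 for Mmp3, chr9:7502092-7502341 for Mmp10, chr9:7272264-7272513 for Mmp13 and chr9:7347124-7347373 for Mmp12.
Mmp3: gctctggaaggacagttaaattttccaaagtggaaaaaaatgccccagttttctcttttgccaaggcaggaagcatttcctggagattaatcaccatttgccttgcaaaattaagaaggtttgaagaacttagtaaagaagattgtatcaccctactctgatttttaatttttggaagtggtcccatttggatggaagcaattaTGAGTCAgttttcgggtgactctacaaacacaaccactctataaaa
Mmp10: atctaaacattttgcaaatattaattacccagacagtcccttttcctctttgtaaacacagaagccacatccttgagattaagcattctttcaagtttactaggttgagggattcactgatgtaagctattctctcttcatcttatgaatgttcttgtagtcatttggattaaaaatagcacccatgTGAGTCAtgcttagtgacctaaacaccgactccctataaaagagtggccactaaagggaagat
Mmp13: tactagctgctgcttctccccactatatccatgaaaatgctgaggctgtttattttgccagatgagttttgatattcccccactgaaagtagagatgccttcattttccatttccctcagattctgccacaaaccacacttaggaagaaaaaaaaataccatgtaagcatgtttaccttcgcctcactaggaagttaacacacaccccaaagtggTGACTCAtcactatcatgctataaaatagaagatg
Mmp12: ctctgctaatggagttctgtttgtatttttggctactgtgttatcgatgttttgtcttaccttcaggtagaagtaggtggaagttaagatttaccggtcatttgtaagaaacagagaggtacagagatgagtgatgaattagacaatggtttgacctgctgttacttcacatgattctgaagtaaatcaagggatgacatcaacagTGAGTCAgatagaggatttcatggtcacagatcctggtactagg
The motif began 46 bases before the start in Mmp3, 63 in Mmp10, 35 in Mmp13 and 44 in Mmp12. Its letters were TGAGTCA in Mmp3, Mmp10 and Mmp12 and TGACTCA in Mmp13. N stands for any base, and the site counted in Mmp20 was TGAATCA. The shares over all genes and promoters count any middle base as well. Mmp12 and Mmp7 each have another annotated start without the motif. A match is a description of these letters, and binding was not measured.

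Members of the cluster with the motif did not share a direction. Mmp3 was the only one of the 6 tested cluster genes to pass in CSP against CMP with all arrays and no block. Mmp10 joined it without TSP 1 and TSP 2, and Mmp10 (higher) and Mmp12 (lower) joined it with the slide as a block and all arrays. Mmp13, a collagenase of cartilage and bone, spread widely in CSP, from -1.54 to 0.97, and was -0.22, -1.04 and -0.83 in CMP. Its difference of 0.10 ± 0.53 (limma adjusted p = 0.927) changed sign with the signals processed by the scanner software, which replace both the background correction and the normalization and gave -1.50. Mmp8, the neutrophil collagenase (0.31 ± 0.31), and Mmp7, matrilysin (-0.09 ± 0.21), did not pass. Mmp12, the macrophage elastase, was 1.80, 2.10 and 0.33 on the CMP arrays and between -0.22 and 0.11 in CSP, so that all CSP arrays lay below all CMP arrays. It was not well above background on any CSP array and was so on 2 of 3 CMP arrays, which makes the level in CMP at least 1.57-fold higher, a bound set by the dimmest signal well above background (mean log2 Cy5 of 7.83 in CMP and 6.67 in CSP; limma adjusted p = 0.0978, and 0.0406 with the slide as a block). Markers of macrophages and other leukocytes stood beside it: the mean log2 ratio of the 10 measured ran from -2.61 to -2.21 in CMP and from -3.33 to -2.69 in CSP, and 2 of the 10 were lower in CSP by the test and 1 (Cd14) was higher. Their part in the difference was not tested.

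**Figure D3:**
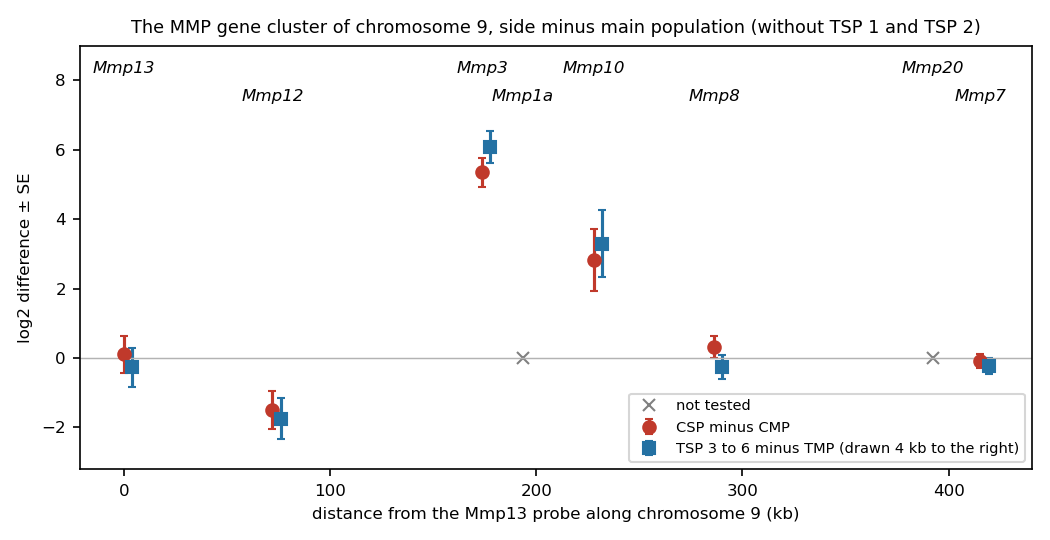
Side minus main population difference in log2 ratio (vertical axis, ± SE of the fit without TSP 1 and TSP 2) of the 6 tested genes of the chromosome 9 cluster against the distance of the probe from that of Mmp13 in kb; circles are CSP minus CMP, squares TSP 3 to TSP 6 minus TMP, and crosses the untested Mmp1a and Mmp20. Mmp3 and Mmp10 stand above 0 in both, Mmp12 stands below, and Mmp13, Mmp8 and Mmp7 lie near 0.

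The gelatinases Mmp2 and Mmp9 degrade denatured collagen and type IV collagen of basement membranes, and both were higher in CSP. Mmp9 was -1.59, -1.89 and -0.89 in CMP and between 1.70 and 3.16 in CSP, with a median of 2.82. Every CSP array lay above every CMP array, and the difference was 4.07 ± 0.77, or 16.8-fold (limma adjusted p = 0.00795). A second Mmp9 probe, printed at 10 spots on each array, gave 3.88; over the 7 to 10 of its spots kept on an array the SD was 0.04 to 0.378 with a median of 0.117, a measure of technical noise within an array. Mmp2 was -2.54, -3.21 and -1.97 in CMP and from -0.89 through 0.76 to 1.17 in CSP, a difference of 3.02 ± 0.78 (8.12-fold, limma adjusted p = 0.0152). CSP 3 and CSP 4 were the low CSP arrays and still lay above every CMP array.

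Pro-MMP2 is activated at the cell surface by the membrane-type enzyme MMP14 in a complex that also holds TIMP2, and these genes moved in different directions. Mmp14 was -0.12, -0.61 and -0.17 in CMP and from 0.17 to 2.08 in CSP, a difference of 1.69 ± 0.38 (3.22-fold, limma adjusted p = 0.00936). Timp2 was -0.70, -0.72 and -0.12 in CMP and from -2.25 through -1.55 to -0.94 in CSP. The 6 CSP values thus all lay under the CMP values, and Timp2 fell by 1.06 ± 0.29 on the log2 scale (2.08-fold, limma adjusted p = 0.0207). Of the other membrane-type genes, Mmp15 went the opposite way to Mmp14: it was 2.03, 1.42 and 1.92 in CMP and from -1.08 to 0.71 in CSP, 3.56-fold lower (limma adjusted p = 0.00945). Mmp16 (0.68 ± 0.48), Mmp17 (0.59 ± 0.30) and Mmp24 (0.47 ± 0.33) did not pass. Mmp16 passed with the slide as a block (1.56, limma adjusted p = 0.0147, and 0.0304 without TSP 1 and TSP 2), and there Mmp17 passed with all arrays only (0.88, limma adjusted p = 0.0346, and 0.0759 without TSP 1 and TSP 2). The 5 membrane-type genes tested thus gave 1 higher and 1 lower call, and 3 higher and 1 lower with the slide as a block and all arrays.

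Among the remaining MMP genes, Mmp19 and Mmp23 were higher in CSP and Mmp11 was lower. Mmp19, which cuts basement membrane proteins, was -0.21, -0.49 and -0.21 in CMP and from 0.46 to 1.94 in CSP (1.48 ± 0.46, limma adjusted p = 0.0362). Mmp23 was -1.84, -1.82 and -0.87 in CMP and from -0.87 to 1.20 in CSP (1.58 ± 0.50, limma adjusted p = 0.0383), with the lowest CSP array, CSP 5, level with the highest CMP array, CMP 3. Mmp11, also called stromelysin-3 and known from the stroma of carcinomas, was 1.38, 1.44 and 2.00 in CMP and from 0.26 to 1.26 in CSP, 1.90-fold lower (limma adjusted p = 0.0394). Mmp11 and Mmp23 lost the call with the slide as a block (limma adjusted p = 0.0567 and 0.078). Mmp28, epilysin, did not pass (0.04 ± 0.33).

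The 4 TIMP genes split. Timp1, an inhibitor of most secreted MMPs, was 2.21, 3.04 and 3.14 in CMP and from 3.83 through 4.24 to 5.03 in CSP, above the reference pool in both groups and 3.00-fold higher in CSP (1.58 ± 0.42, limma adjusted p = 0.017). Its 3 probes gave differences of 0.97 to 1.58. With the slide as a block it passed with all arrays (limma adjusted p = 0.0464) and not without TSP 1 and TSP 2 (limma adjusted p = 0.0846). Timp3, which binds the matrix and also inhibits ADAMTS and ADAM proteases, was 0.03, 0.11 and 0.21 in CMP and ran from -1.86 through -1.04 to 0.19 in CSP. All CSP arrays but CSP 5 lay below the CMP arrays, and the difference was -1.08 ± 0.35 (2.11-fold lower, limma adjusted p = 0.0468). Timp3 lost the call with the slide as a block (-0.81, limma adjusted p = 0.152), and in 26 of 37 alternative settings in all. Timp4 was higher on all 6 CSP arrays than on the 3 CMP arrays, yet its difference of 0.53 ± 0.24 did not pass (limma adjusted p = 0.15); with the slide as a block it did (0.71, limma adjusted p = 0.0497), though not without TSP 1 and TSP 2 (limma adjusted p = 0.103). Timp1 thus rose in CSP with Mmp3, Mmp9, Mmp2 and Mmp14, while Timp2 and Timp3 fell.

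Of the 7 ADAMTS genes whose enzymes cut large proteoglycans such as aggrecan and versican, 3 were higher in CSP with all arrays and 5 without TSP 1 and TSP 2, and none was lower. In the fits with the slide as a block 4 were higher in either set of arrays. Adamts4, aggrecanase-1, was 0.34, -0.16 and -0.10 in CMP and from 1.96 through 3.03 to 3.35 in CSP (2.81 ± 0.66, 6.99-fold, limma adjusted p = 0.0109). Adamts9 was -1.64, -2.02 and -1.33 in CMP and from 0.54 to 2.28 in CSP (2.83 ± 0.65, 7.10-fold, limma adjusted p = 0.0101). Both genes were above every CMP array on every CSP array. Adamts8 rose by 2.16 ± 0.48 (4.48-fold, limma adjusted p = 0.00935). Adamts5, aggrecanase-2, was -1.85, -2.60 and -1.68 in CMP and from -1.23 to 0.16 in CSP. The groups did not overlap, but the difference of 1.77 ± 0.61 did not pass with all arrays (limma adjusted p = 0.0583) and passed without TSP 1 and TSP 2 (limma adjusted p = 0.00143) and with the slide as a block (limma adjusted p = 0.0271). Adamts15 passed without TSP 1 and TSP 2 (0.72 ± 0.24, limma adjusted p = 0.0404) and not with all arrays (limma adjusted p = 0.135) or with the slide as a block (limma adjusted p = 0.0775, and 0.155 without TSP 1 and TSP 2). Adamts1 was 1.29, 1.08 and 1.14 in CMP and 1.16 to 2.24 in CSP and did not pass (0.55 ± 0.24, limma adjusted p = 0.122); a dimmer probe of Adamts1 gave -0.25, so the direction depended on the probe. Adamts20 did not pass (0.02 ± 0.25).

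The other ADAMTS calls were also towards higher levels in CSP. Adamts2, which removes the N-terminal propeptide of fibrillar procollagens, was -2.53, -2.87 and -1.91 in CMP and from -0.12 through 0.72 to 1.60 in CSP. The groups did not overlap, and the difference was 3.16 ± 0.76 (8.93-fold, limma adjusted p = 0.0118). Its 4 probes ranged from 0.06, on a probe well above background on 6 arrays, to 3.16. Adamts3, the other procollagen N-proteinase measured, did not pass (-0.30 ± 0.26). Adamts7 and Adamts12, a structurally related pair known to cut cartilage oligomeric matrix protein, rose together: Adamts7 by 1.97 ± 0.44 (3.92-fold, limma adjusted p = 0.00939) and Adamts12 by 1.72 ± 0.47 (3.29-fold, limma adjusted p = 0.0215). Adamts6 and Adamts18 varied widely among the CSP arrays. Adamts6 was 2.78 on CSP 3 and -1.12 to 0.86 on the other CSP arrays, and Adamts18 was 1.95 and 1.88 on CSP 5 and CSP 6, which shared slide 4, and -0.70 to 0.39 on the other 4. Neither passed (1.60 ± 0.71 and 1.01 ± 0.44). Adamts18 passed with the slide as a block (1.76, limma adjusted p = 0.00259, and 0.00297 without TSP 1 and TSP 2), while a dimmer Adamts18 probe gave -0.15 without the block. Adamts13, the protease of von Willebrand factor, was well above background on no array, while its substrate Vwf was 5.12 ± 1.06 higher in CSP (limma adjusted p = 0.00811).

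ADAMTSL proteins resemble ADAMTS proteases but lack the protease domain and bind microfibrils of the matrix. Adamtsl2 was -0.97, -1.33 and -1.32 in CMP and from -0.31 to 0.44 in CSP, 2.46-fold higher (limma adjusted p = 0.0132). Adamtsl4 was 1.67, 1.21 and 2.06 in CMP and from -0.38 to 0.85 in CSP, 2.98-fold lower (limma adjusted p = 0.0412). Adamtsl1 (0.13 ± 0.19), Adamtsl3 (0.78 ± 0.27) and Adamtsl5 (0.37 ± 0.32) did not pass.

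The same comparison after thyroidectomy set TSP against TMP. With all 6 TSP arrays no member passed, nor did any of the 20454 genes (percent called 0). An unadjusted p under 0.05 was reached by 18 members (share of all genes not given). Without TSP 1 and TSP 2, 19 of the 41 genes passed (46.3%, against 14.7% of all genes), 17 higher and 2 lower in TSP (against 7.67% and 7.01% of all genes). These arrays were left out for a likeness to the main population that the 41 genes also showed. That choice favours larger differences from TMP, so adjusted p values of TSP against TMP without them, here and below, are descriptive. All 19 had the same direction with TSP 1 and TSP 2 included. That fit still holds the TSP arrays that had chosen them, so it is no independent check. Slide 5 held TSP 5, TSP 6 and the single TMP 3; within it 4 members passed (against 1.57% of all genes) and the 19 had the same direction, on arrays that had chosen them. With the slide as a block 4 members passed with all arrays (against 1.1% of all genes) and 18 without TSP 1 and TSP 2 (against 15.7%). In the latter fit Timp1, Adamts1 and Adamts15 lost the call (limma adjusted p = 0.108, 0.062 and 0.134) and Mmp17 and Adamts18 gained it. Of the 19, 14 were also called the same way in CSP against CMP, which is 14 of the 19 called there (73.7% of each list, against 69% and 68.2% of the calls over all genes). Those 14 were Mmp2, Mmp3, Mmp9, Mmp14, Mmp19, Mmp15, Timp1, Adamts2, Adamts4, Adamts7, Adamts8, Adamts9, Adamts12 and Adamtsl4. The 2 comparisons have no array in common but are not independent. Same-numbered CMP and TMP arrays shared slides, and their deviations correlated at 0.666 to 0.806. Each fit also gives both comparisons 1 estimate of the spread per gene. Over all 41 genes, 36 had the same direction in both (87.8%, against 81.2% of all genes).

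Mmp3 was 5.99, 6.90, 6.04 and 6.04 on TSP 3 to TSP 6 and 0.82, 0.16 and -0.48 in TMP. On TSP 1 and TSP 2 it was 0.38 and 0.82, within the range of the main population. Its difference was 6.08 ± 0.46 without those arrays (67.6-fold, limma adjusted p = 1.9e-07) and 4.20 ± 1.15 with them (limma adjusted p = 0.252). Adamts2 was 1.13, 1.73, 0.97 and 1.46 on TSP 3 to TSP 6, -2.38 and -2.21 on TSP 1 and TSP 2, and -2.07, -2.71 and -2.19 in TMP. The difference was 3.65 ± 0.36 without TSP 1 and TSP 2 and 2.44 ± 0.76 with them (limma adjusted p = 2.94e-06 and 0.252). Mmp2 gave 3.56 ± 0.47 and 2.41 ± 0.78 (limma adjusted p = 5.64e-05 and 0.252), and Mmp9 gave 3.46 ± 0.44 and 2.31 ± 0.77 (limma adjusted p = 4.32e-05 and 0.252), in that order. For these 4 genes TSP 1 and TSP 2 lay with TMP and the other 4 TSP arrays with CSP.

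Mmp10 was 5.47, 4.50, 5.28 and 3.12 on TSP 3 to TSP 6 and 0.79, 1.42 and 1.71 in TMP, so that no TSP array of these 4 was as low as CSP 4. The difference was 3.29 ± 0.97 (limma adjusted p = 0.0277) without TSP 1 and TSP 2 and 2.05 ± 1.12 (limma adjusted p = 0.451) with them. Adamts5 was 1.24, 1.36, 0.45 and 0.44 on TSP 3 to TSP 6 and -1.52, -2.56 and -1.75 in TMP (2.82 ± 0.38, limma adjusted p = 6.64e-05 without TSP 1 and TSP 2, and 1.93 ± 0.61, limma adjusted p = 0.252 with them). Adamts1 passed without TSP 1 and TSP 2 as well (0.95 ± 0.27, limma adjusted p = 0.0221, and 0.89 ± 0.24 with them, limma adjusted p = 0.252), and so did Mmp16 (1.61 ± 0.43) and Adamts15 (0.80 ± 0.26). Mmp16 and Adamts8 were not well above background on any TMP array, and they were so on only 4 and 3 of the 6 TSP arrays. The mean over all 6 TSP arrays was at least 1.92-fold and 2.32-fold above the TMP bound. Neither difference passed in that fit (limma adjusted p = 0.32 and 0.254). Adamtsl4 and Mmp15 were the genes lower in TSP without TSP 1 and TSP 2 (-1.996 ± 0.30 and -1.37 ± 0.42); with them they were -1.24 ± 0.50 and -1.07 ± 0.41 and did not pass. Timp1 was 1.41 ± 0.37 higher (limma adjusted p = 0.0127) without those arrays and 0.97 ± 0.42 with them (limma adjusted p = 0.316). Timp3 did not pass in either fit (-1.04 ± 0.37 and -0.83 ± 0.35), and Timp2 was -0.003 ± 0.32 and -0.04 ± 0.29, where CSP against CMP had given -1.06.

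**Figure D4:**
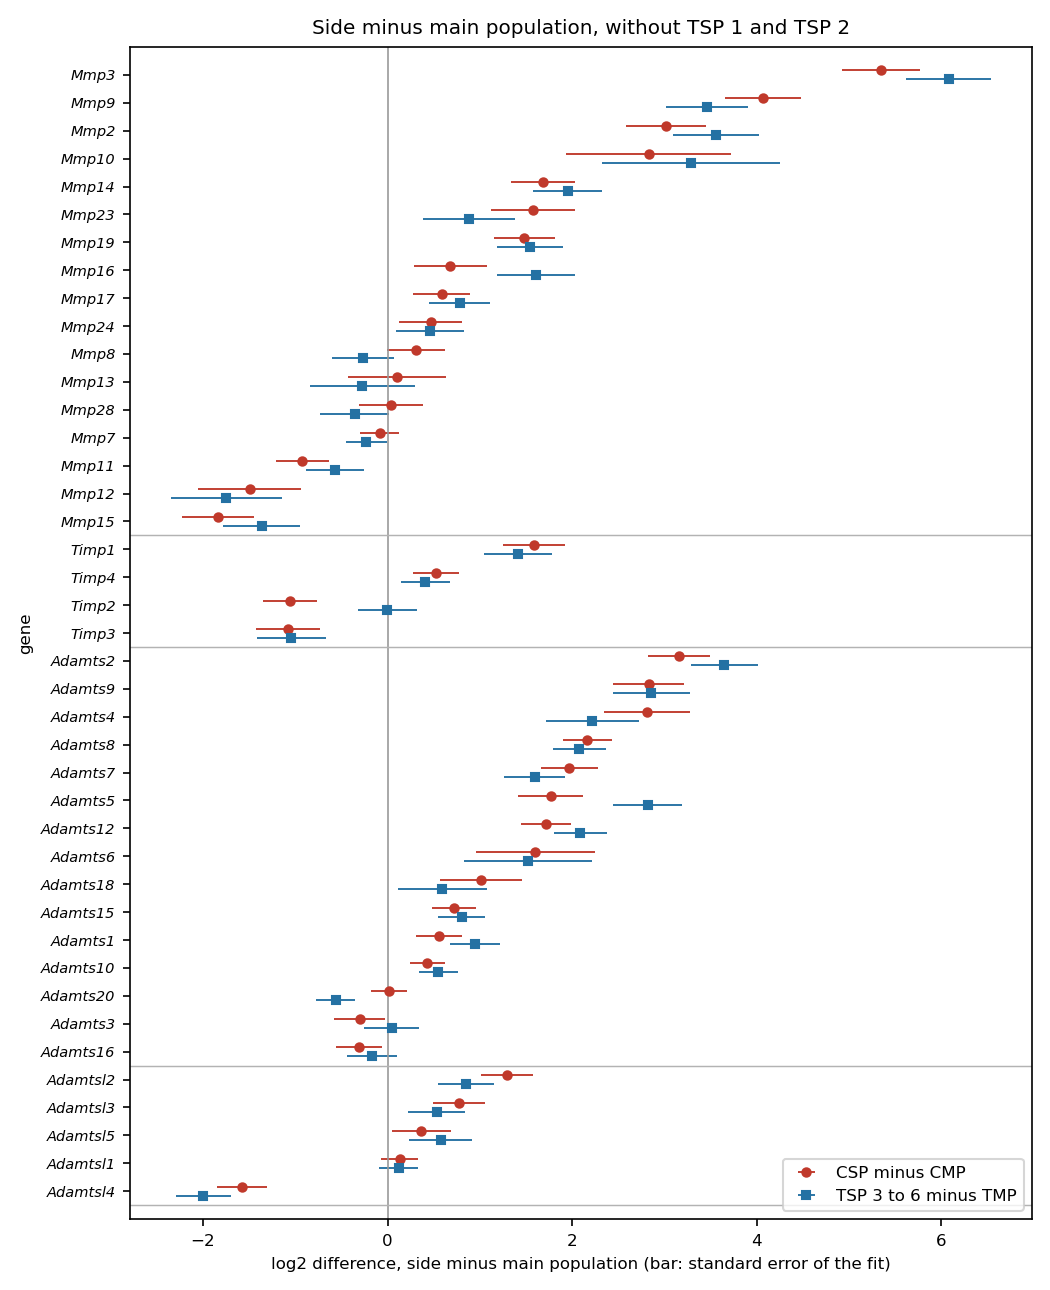
Side minus main population difference in log2 ratio (horizontal axis, bar ± SE) for each of the 41 genes, by family, in the fit without TSP 1 and TSP 2; circles are CSP minus CMP and squares TSP 3 to TSP 6 minus TMP. Mmp3 lies farthest to the right in both, and Timp2 and Adamts5 are among the genes whose 2 symbols lie apart.

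The effect of thyroidectomy itself was compared within each population. No member and no other gene passed in TSP against CSP, with or without TSP 1 and TSP 2, nor in TMP against CMP (percent called 0 in each). Among the 41 genes, 4 had an unadjusted p under 0.05 in TSP against CSP (3 without TSP 1 and TSP 2) and 0 in TMP against CMP. The share of all genes is not given beside these counts. The precision differed by gene: without TSP 1 and TSP 2, the 95% interval lay within a 2-fold change in either direction for 26 of the 41 genes in TSP against CSP and for 27 in TMP against CMP, and the median half-width was 0.64 and 0.81 on the log2 scale. With all arrays these were 18 and 15 genes, with median half-widths of 0.705 and 0.997. For the remaining genes the interval reached past a 2-fold change. Intervals and adjusted p values without TSP 1 and TSP 2 follow a choice made after the data were seen, and are descriptive.

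In the side population the largest differences depended on TSP 1 and TSP 2. With all arrays Mmp3 was -1.67 ± 0.94, Mmp9 -1.24 ± 0.63 and Adamts4 -1.22 ± 0.54 in TSP against CSP; without TSP 1 and TSP 2 these were 0.22 ± 0.39, -0.09 ± 0.38 and -0.37 ± 0.43. Within slide 1, which held CSP 1, CSP 2, TSP 1 and TSP 2, Mmp3 differed by -5.52, and within slide 3, with CSP 3, CSP 4, TSP 3 and TSP 4, by 1.33. The sign of the Mmp3 difference was thus set by which arrays were used. Within slide 1, 26 members passed (7 higher and 19 lower in TSP), where 40.7% of all genes did. Within slide 3 none did (8 had an unadjusted p under 0.05, share of all genes not given). With the slide as a block and all arrays, Adamts7 passed as lower in TSP (-1.13, limma adjusted p = 0.0322, where 4.39% of all genes passed), and without TSP 1 and TSP 2 no member did, where 0.088% of all genes passed.

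Timp2 and Adamts5 were the members with the smallest unadjusted p in TSP against CSP without TSP 1 and TSP 2. Timp2 was -0.63, -0.26, -1.08 and -0.82 on TSP 3 to TSP 6 and -0.58 and -1.04 on TSP 1 and TSP 2, against a CSP range of -2.25 to -0.94. It was 0.84 ± 0.24 higher in TSP with all arrays (unadjusted p = 0.0022, limma adjusted p = 0.428) and 0.87 ± 0.27 without TSP 1 and TSP 2 (95% interval 0.30 to 1.45, limma adjusted p = 0.9998). The difference of Timp2 was thus as large without those arrays. Adamts5 was 1.15 ± 0.32 higher without TSP 1 and TSP 2 (95% interval 0.48 to 1.83, limma adjusted p = 0.9998) and 0.27 ± 0.50 with them, and within slides 1 and 3 it differed by -1.79 and 1.84. It was the 1 member for which all 4 of these TSP arrays lay above all 6 CSP arrays, as did 0.342% of all genes. Neither difference passed over all genes. With all arrays Adamts18 was -0.92 ± 0.36 and Mmp12 0.98 ± 0.49, and without TSP 1 and TSP 2 they were -0.74 ± 0.41 and 0.62 ± 0.51, and neither passed; Adamts18 was not well above background on any TSP array, and Mmp12 was so on TSP arrays only in 2 of 6, at 2.51 on TSP 4 and 2.30 on TSP 2.

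In the main population, Mmp12 was 3.32, 2.40 and 1.12 in TMP against 1.80, 2.10 and 0.33 in CMP, the largest difference there (0.87 ± 0.69, limma adjusted p = 1). Replicate numbers pair CMP and TMP arrays on 3 shared slides, and with these as a block Mmp12 and the other 40 genes still did not pass. An unadjusted p under 0.05 was reached by 7 of them (share of all genes not given). Next came Mmp13 (0.75 ± 0.61), Adamts6 (0.71 ± 0.82), Mmp8 (0.54 ± 0.35), Mmp9 (0.52 ± 0.89) and, towards lower levels, Mmp3 (-0.52 ± 1.33). Macrophage and leukocyte markers had a mean log2 ratio of -2.55 to -1.76 in TMP and of -2.61 to -2.21 in CMP, and their part in the Mmp12 values was not tested.

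**Figure D5:**
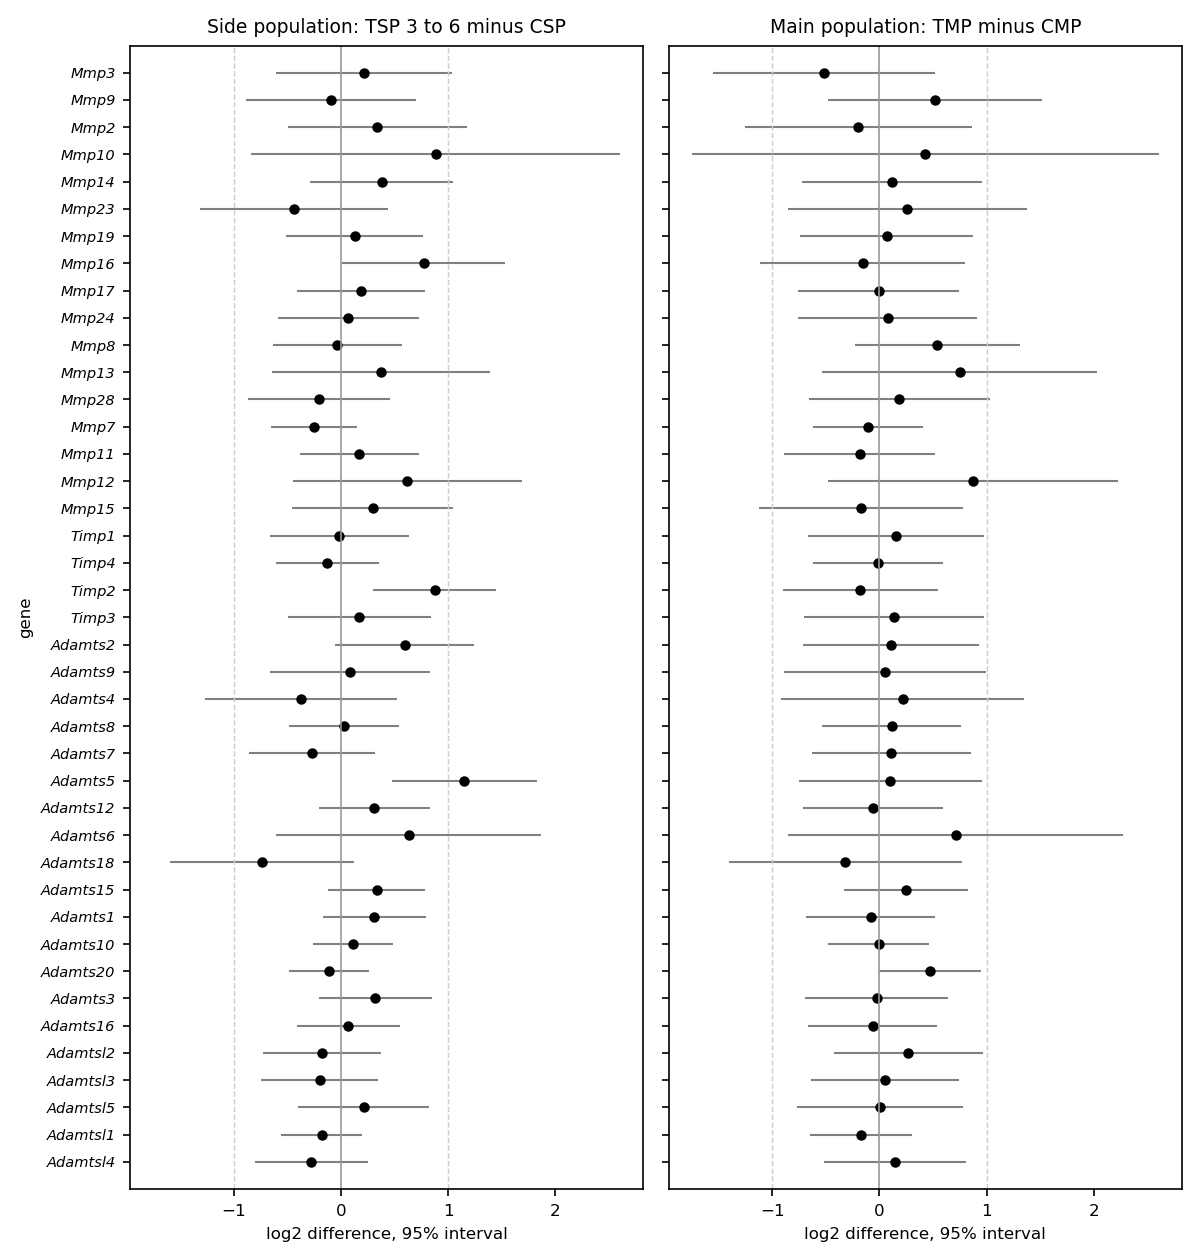
Difference in log2 ratio after against without thyroidectomy (horizontal axis, point and 95% interval of the fit without TSP 1 and TSP 2) for each of the 41 genes, in the side population (left) and the main population (right); dashed lines mark a 2-fold change. The intervals of Timp2, Adamts5 and Mmp16 exclude 0 on the left, before adjustment, and none of the genes passed the test.

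Whether the side minus main difference changed with surgery was tested as an interaction. No member passed (percent called 0 among all genes), and 1, Timp2, had an unadjusted p under 0.05 (1.02 ± 0.41, unadjusted p = 0.0225, limma adjusted p = 0.9996). The other large values with all arrays were -1.76 ± 1.09 for Mmp9, -1.44 ± 0.93 for Adamts4, -1.15 ± 1.63 for Mmp3 and -1.09 ± 0.70 for Mmp23; without TSP 1 and TSP 2 these were -0.61 ± 0.60, -0.59 ± 0.69, 0.73 ± 0.63 and -0.70 ± 0.67, and that of Timp2 was 1.05 ± 0.44. A change of the side minus main difference with surgery was therefore not shown for any of the genes.

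Genes that act around these proteases were read from lists of their regulators, relatives, substrates and inducers. The counts of each list stand against the 7.61% of all genes that were higher in CSP and the 7.25% that were lower. Of 16 measured regulators, 2 were higher in CSP than in CMP and 2 were lower, close to those shares: Tfpi2, a Kunitz inhibitor of plasmin and of some MMPs, rose by 4.01 ± 0.95 (limma adjusted p = 0.011) and Lrp1, an endocytic receptor that clears MMPs and ADAMTS proteases, by 2.20 ± 0.49 (limma adjusted p = 0.00933). Sdc4, a heparan sulfate proteoglycan of the cell surface, fell by 2.81 on the log2 scale (limma adjusted p = 0.0124), and Bsg, basigin, which induces MMPs in neighbouring cells, fell by 1.52 (limma adjusted p = 0.0142). The membrane inhibitor Reck did not pass (1.16 ± 0.41, limma adjusted p = 0.0616). Of 17 ADAM and astacin family proteases, 4 rose and 2 fell. Tll1 (3.20 ± 0.88) and Bmp1 (1.60 ± 0.45), which remove the C-terminal propeptide of procollagens, and Pappa (2.74 ± 0.54) and Adam19 (2.06 ± 0.59) were higher, while Adam8 (-2.55 ± 0.78) and Adam12 (-1.06 ± 0.31) were lower.

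Matrix genes, the substrates, were higher in 12 of 22 cases and lower in 0, with a list median of 1.81 against 0.06 for all genes. Besides Vwf, the largest were the small proteoglycans Lum (4.64 ± 1.01) and Dcn (4.26 ± 0.99) and the basement membrane gene Nid1 (3.64 ± 0.72). Acan, the substrate for which aggrecanases are named, rose by 1.41 ± 0.35 (limma adjusted p = 0.0133). Of 24 inducers and transcription factors of MMP genes, 7 rose and 3 fell. Il6 (3.90 ± 0.77), Tgfb2 (2.37 ± 0.60) and Runx2 (1.56 ± 0.39) were higher in CSP. The inflammatory inducers Il1b (-3.04 ± 0.53), Tnf (-2.55 ± 0.56) and Il1a (-2.33 ± 0.49) were lower there, and Il1b was well above background on no CSP array and on all CMP arrays. Genes of AP-1 subunits (Fos, Fosb, Fosl1, Fosl2, Jun, Junb, Jund) did not pass in CSP against CMP with all arrays, with differences from -1.27 for Jund to 0.64 for Fosl1. Jund alone of the 7 passed without TSP 1 and TSP 2, as lower (limma adjusted p = 0.0202).

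Markers of stromal and vascular cells moved with the proteases between the populations. Most fibroblast markers, Dcn and Lum among them, and the endothelial marker Vwf are also on the list of matrix substrates above. These lists are therefore not separate evidence. Of 12 endothelial markers 11 were higher in CSP than in CMP, of 10 fibroblast markers 7 and of 8 smooth muscle and pericyte markers 3, and none of these was lower. All 9 epithelial markers and 6 of 9 follicular markers were lower. The mean log2 ratio of the endothelial list ran from 0.58 to 2.14 in CSP and from -2.17 to -1.51 in CMP, and that of the fibroblast list from -1.88 to 0.52 and from -3.53 to -2.97. After thyroidectomy, TSP 1 and TSP 2 lay with the main population in these lists too, with -1.84 as the lowest endothelial mean in TSP and 1.74 as the highest. Of 7 neutrophil and mast cell markers none passed. All 12 endothelial markers were well above background on every CSP and every TSP array, and 10 were so on every CMP and every TMP array. How far the protease and inhibitor values follow the share of these cells was not tested.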

How the data were processed

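The deposited intensity values of both channels, 1 scanner file per array, were extracted by the authors from the array scans with Agilent Feature Extraction 9.5.1.1, per the file headers, while the submitters' processing notes name 8.5.1.1. The authors' deposited log2 ratios, a table of 33040 probes, served as an alternative; their scale and centring are not stated.

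Mean intensities were corrected with normexp (offset 50) and normalized by loess within each array in limma 3.58.1 (R 4.3.3). Control spots had no weight, outlier spots were dropped, and repeated spots of a probe were averaged. Each gene is represented by its brightest probe among those whose Cy5 signal was well above background on 3 or more arrays. A model of 4 group means and 5 contrasts was fitted to 20454 genes with lmFit and eBayes; a gene was called at a Benjamini-Hochberg adjusted p under 0.05. Intervals are 95%. The fit was tested on simulated data. Probe positions are those of the files (mm7); RefSeq promoters were matched by symbol for 32 of the 47 genes.

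Members, lists, tests and the leaving out of TSP 1 and TSP 2 were chosen with earlier results of these data known. Genes named are those called in CSP against CMP, the TIMPs and a few proteases in any case, the 5 largest differences in each other contrast, genes whose call or sign depends on probe or on TSP 1 and TSP 2, and up to 4 per list. Some genes were singled out after their values were seen (Reck, Acan, the AP-1 subunits, Cd14 and the further uncalled members). 1 gene of the follicular marker list is not reported here and was left out of that list's counts.

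The design calls the samples biological replicates. Deviations of same-numbered CMP and TMP arrays, which shared slides, correlated at 0.666, 0.742 and 0.806, so these numbers pair the arrays; those of other groups do not. Array signals carry no counting depth; precision is limited by how many arrays a group has.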

Additional observations from a re-analysis of the deposited data

Results flagged for a closer look

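In 3 of 82 gene and group combinations with 6 arrays, 1 array stood apart from the rest by Dixon's test, and chance alone flags about 1 in 20. Adamts15, a proteoglycan-cleaving protease, was -0.26 (log2 ratio) on CSP 6, and the next CSP array was at -0.46. Adamtsl4, a microfibril-binding protein, was 0.85 on CSP 6, and the next was at 0.045. Timp4 was -0.40 on TSP 6, and the next TSP array was at -1.20.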

How the results depend on the processing

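The 19 genes called in CSP against CMP kept their direction under each alternative in which they had a value. These were 17 genes with the stricter filter on dim probes and 18 in the deposited values. The calls were not equally firm. Of 37 alternatives, Timp3 lost the call in 26, Mmp11 in 18, Mmp23 in 17, Adamtsl4 in 16, Mmp19 in 13 and Timp2 in 9. Mmp3, Mmp9 and Adamts4 lost it in 2 each and Mmp15 in 1. The number called was 3 with scaling between arrays and 0 within slide 4, and 3 (without CMP 2) to 20 when each array was left out in turn; the other settings gave 13 to 23. With the replicate block it was 13 (11 higher and 2 lower), and no member was called in any other contrast. In TSP against TMP, 0 became 4 with the slide as a block, 4 within slide 5, 0 to 9 with each array left out (9 without TSP 1, 8 without TSP 2), 19 without TSP 1 and TSP 2, 18 with the slide block added and 19 without slide 1. In TSP against CSP, 0 became 26 within slide 1 and 1 with the slide block. Shares of all genes are not given beside the counts of this paragraph, so they do not set the members apart from other genes. The cause of these shifts was not tested.

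Some differences changed sign. Mmp13 in CSP against CMP was -1.50 with processed signals, -0.12 with median centring, -0.25 without TSP 1 and TSP 2 with the slide block, -0.50 without slide 1, -0.068 without TSP 1, TSP 2 and CMP 2, and -0.21 to 0.343 with each array left out in turn (below 0 without CSP 1, CSP 2 or CMP 2). In TSP against CSP, Mmp3 was 1.18 with scaling, 1.33 within slide 3, 0.22 without TSP 1 and TSP 2, 0.73 with the slide block added and 0.26 without slide 1. There Mmp9 was 1.09 within slide 3, 0.19 without TSP 1 and TSP 2 with the slide block and 0.072 without slide 1, and Adamts4 was 0.43 and 0.019 under the first 2 of these settings. The interaction of Mmp3 was 1.65 with scaling, 0.73 without TSP 1 and TSP 2, 1.25 with the slide block added and 0.78 without slide 1. Median centring moved the median of all genes in CSP against CMP from 0.06 to -0.08; of the calls, 73.7% of members (51.2% of all genes) were higher with loess, 84.6% (32.6%) with median centring and 66.7% (39.6%) with scaling.

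The brightest probe decided some values: the probes of a gene disagreed in sign for Adamts1, Adamts18 and Mmp24 of 14 genes with at least 2 probes. Genes not well above background in a group have only a bound there.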

Other observations

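In the authors' deposited log2 ratios the column medians ran from 0.127 to 0.302, and 15 of the 36 members with enough values there were called in CSP against CMP (13 higher and 2 lower), where 13.5% of 18657 genes were. Several columns correlated better with another array's scanner values than with those of the array of the same name: the columns named CSP 2 to CSP 5 matched another CSP array, TSP 2 to TSP 5 another TSP array, and TSP 6 matched CSP 6 best. The scanner values of TSP 2 were matched by the column named TSP 4. Slopes against the matching scanner ratios were 0.757 to 1.41.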
